A study of Mus musculus with 5 samples.

Results

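Hemidesmosome and laminin-332 genes were described in tumour cells of the mouse prostate, over 5 arrays from 5 mice of 2 genotypes. The 9 genes were Itga6, Itgb4, Lama3, Lamb3, Col17a1, Dst, Plec, Cd151 and Itga3, and every probe set of the array platform that carries only 1 of these symbols was taken. This gave 23 probe sets out of 45037. The annotation put these in 9 of the 18193 genes named by a single symbol. The genes were selected in part on the log2 signals described here, since lower nTKO means of Itgb4 and Itga6 on the same arrays were known when the list was drawn up. Their genotype differences are therefore descriptions, and no test of the list was made. A further probe set shared by Plec and Parp10 was left out and measured 8.76 and 9.03 in nTKO cells, against 8.44, 8.99 and 9.11 in nDKO cells.

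In nTKO mice, the prostate-specific Probasin driver acts on floxed Pygo2 and on the same floxed alleles as in nDKO mice, and there were 2 such mice, nTKO 1 at 31.43 weeks and nTKO 2 at 16 weeks. In nDKO mice, the driver acts on floxed alleles that include Smad4, and there were 3 such mice, nDKO 1 at 15.86 weeks and nDKO 2 and nDKO 3 at 10.71 weeks each. Both genotypes were on the C57BL/6 strain, and floxed Smad4, which encodes the shared SMAD of the TGF-beta and BMP pathways, is common to both. The tumours were dissociated, their cells were pulled out with EpCAM beads on ice, and RNA was hybridised to 1 single-channel Affymetrix array per mouse. Both nTKO mice were older than every nDKO mouse, so age and genotype are confounded, and replicate 1 was the oldest of each genotype.

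Hemidesmosomes are the junctions that fix basal epithelial cells to the basement membrane. The integrin of alpha6 and beta4 chains binds laminin-332 outside the cell, collagen XVII spans the membrane beside it, and the plakins plectin and BPAG1 tie both to the keratin 5 and keratin 14 filaments inside. In the normal prostate this assembly belongs to the basal layer, and luminal cells carry little of it.

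All values are log2 signals made with RMA by the submitters, so a difference of 1 is a factor of 2 on the scale of signal. Array medians lay between 4.94 and 4.98. Along the first principal component, which held 47.1% of the variance, nTKO 1 (24.2) and nDKO 1 (47.0) stood apart from nTKO 2, nDKO 2 and nDKO 3 (-28.6 to -20.4). Pygo2 measured 7.30 and 6.35 in nTKO cells, against 8.65, 8.62 and 8.72 in nDKO cells, and Smad4 kept a signal of 9.76 and 10.37 in nTKO cells, against 9.63, 9.88 and 9.88 in nDKO cells. Where the probe sets of these genes lie relative to the deleted parts was not analysed here. Epcam, the antigen of the beads, lay between 12.94 and 13.48 and Krt8, a simple-epithelial keratin, between 12.96 and 13.55. The prostate secretory gene Pbsn was below the array median in nTKO 1, nDKO 1 and nDKO 2 (3.81, 3.91 and 3.33) and reached 8.15 in nTKO 2 and 5.43 in nDKO 3. In bulk cells, fewer cells of a type and less RNA per cell cannot be told apart.

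The junction genes had their low values in 1 mouse, nTKO 1. There, 8 of the 9 genes had their lowest value of all 5 arrays by the probe set with the highest mean of each gene, called the brightest below. This was the case for 14.0% of all 18193 genes and for 16.9% of those whose brightest probe set was above the array median throughout, as it was for all 9. The exception was Cd151. Over all 23 probe sets the lowest array was nTKO 1 for 18, against 17.4% of all probe sets. For 8 of the 9 genes nTKO 1 was lower than the next array by at least 0.2, against 4.42% of all genes. These counts include Itgb4 and Itga6, whose lower nTKO means were known when the list was drawn up, so they are descriptions. In nTKO 2, the 9 brightest probe sets lay between -0.17 and 0.14 of the nDKO mean. The basal keratins had another order, with Krt5 and Krt14 higher in nTKO 1 than in nTKO 2 and higher in nDKO 1 than in nDKO 2 and nDKO 3.

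**Figure D1:**
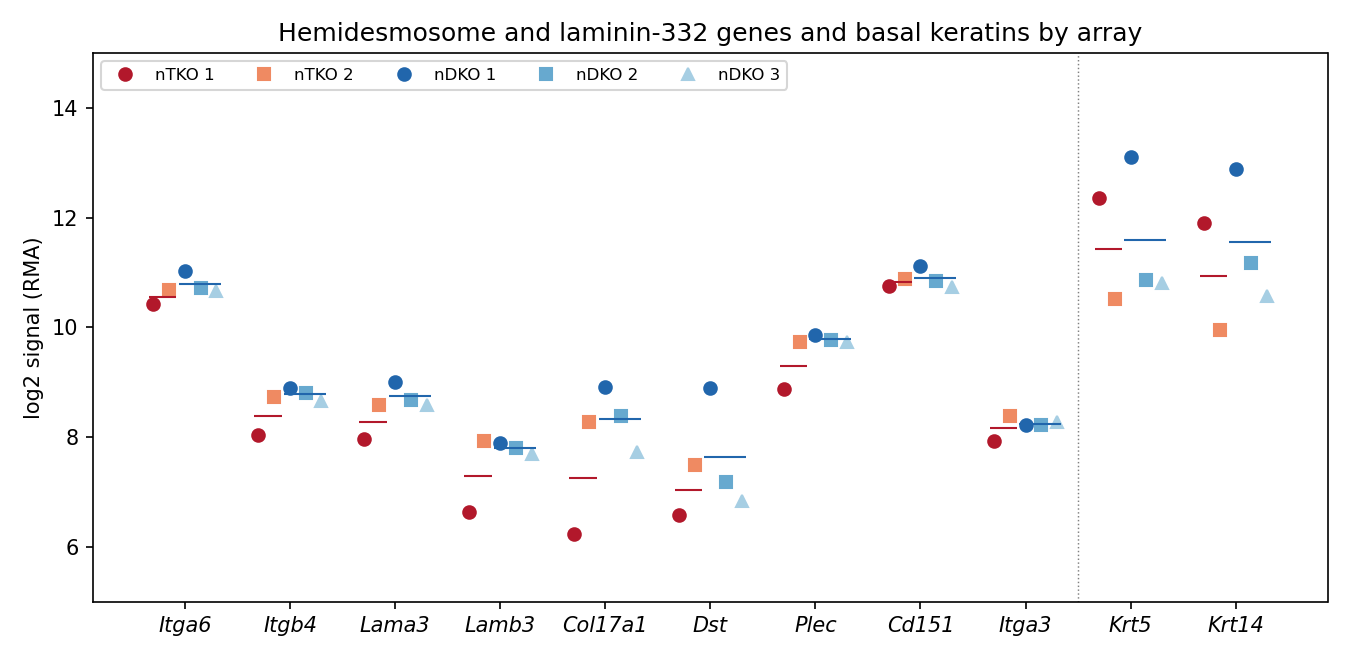
Log2 signal (vertical axis) of the brightest probe set of each gene (horizontal axis), with 1 point per array and a short line at the mean of each genotype (2 nTKO arrays in red shades, 3 nDKO arrays in blue shades). Col17a1 at 6.24 and Lamb3 at 6.63 in nTKO 1 lie below all other arrays, while Krt5 at 12.35 in nTKO 1 is second to nDKO 1 at 13.10.

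By brightest probe sets, Col17a1 and Lamb3 were the 2 junction genes lowest in nTKO 1 relative to the nDKO mean. Their start regions are shown with that of Krt5, a basal keratin that, like Krt14, was high in the same mouse. Each is 300 bases from RefSeq on GRCm38.p6, 250 before and 50 after an annotated start, and capitals mark every match to the 6 motifs searched on both strands. The window of Col17a1 is chr19:47691993-47692292 on the minus strand, at the start of a gene that spans chr19:47646341-47692042. That of Lamb3 is chr1:193301744-193302043 on the plus strand, 1 of 2 annotated starts, within the gene span chr1:193294353-193343878. That of Krt5 is chr15:101712856-101713155 on the minus strand.
Col17a1: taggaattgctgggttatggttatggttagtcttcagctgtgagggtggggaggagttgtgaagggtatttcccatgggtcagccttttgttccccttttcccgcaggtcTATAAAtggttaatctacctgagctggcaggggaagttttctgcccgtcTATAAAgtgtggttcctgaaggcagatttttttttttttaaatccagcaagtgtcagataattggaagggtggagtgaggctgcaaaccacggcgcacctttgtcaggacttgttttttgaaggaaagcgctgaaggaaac
Lamb3: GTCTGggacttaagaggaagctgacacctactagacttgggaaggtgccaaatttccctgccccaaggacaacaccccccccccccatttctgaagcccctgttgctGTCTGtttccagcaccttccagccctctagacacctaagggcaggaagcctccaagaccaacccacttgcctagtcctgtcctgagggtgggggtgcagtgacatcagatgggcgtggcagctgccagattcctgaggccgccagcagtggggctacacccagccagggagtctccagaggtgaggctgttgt
Krt5: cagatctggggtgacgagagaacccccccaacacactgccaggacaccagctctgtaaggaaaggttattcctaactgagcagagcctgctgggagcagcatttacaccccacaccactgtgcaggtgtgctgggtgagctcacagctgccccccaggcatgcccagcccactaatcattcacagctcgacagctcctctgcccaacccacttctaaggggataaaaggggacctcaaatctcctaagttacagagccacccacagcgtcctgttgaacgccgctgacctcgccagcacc

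The motifs were TATAAA (the TATA box), CAGAC (SMAD), TGANTCA (AP-1), CTTTGNT (TCF/LEF), GGGCGG (Sp1) and GCCNNNGGC (AP-2). TATAAA occurred in the Col17a1 window and in 13.6% of all 32851 windows outside chromosome 18, and CAGAC in both Lamb3 windows and in 49.6% of all. The Krt5 window held none of the 6, while the Krt14 window held CAGAC. Of the 9 genes, 5 had windows among these, and TCF/LEF letters stood in 1 of 2 windows of Dst and 1 of 2 of Itga3, against 18.6% of all. AP-1 letters stood in 1 of 2 windows of Itga3, against 7.81% of all windows. The Sp1 letters were in 1 of 2 windows of Dst and of Cd151 and in both of Itga3, against 35.7% of all, and the AP-2 letters were in both of Cd151, against 16.6%. CAGAC was also in both windows of Cd151 and in 1 of 2 of Dst and of Itga3. A match describes letters only, and 2 pairs of matches to different motifs overlapped in the 11 windows of these genes and the 2 keratins.

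Of the transmembrane genes, Col17a1, collagen XVII, whose outer part reaches into the basement membrane, measured 6.24 and 8.27 in nTKO cells, against 8.91, 8.38 and 7.73 in nDKO cells. The groups overlapped, because nTKO 2 lay between the nDKO mice while nTKO 1 was 1.49 below the lowest of them. The means were 7.25 ± 1.44 (SD, n = 2) in nTKO and 8.34 ± 0.59 (SD, n = 3) in nDKO cells, a log2 difference of -1.08 (SE 0.74). The signal in nTKO 1 was 23.3% of the nDKO mean. Col17a1 also varied most within nDKO cells among the genes other than Dst.

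Itgb4, the beta4 chain, which pairs with alpha6 and carries the long cytoplasmic tail that binds plectin, measured 8.04 and 8.74 in nTKO cells, against 8.90, 8.80 and 8.66 in nDKO cells. The value in nTKO 1 was 59.6% of the nDKO mean, while nTKO 2 lay inside the nDKO range. The difference of means was -0.40 (SE 0.24). Itga6, the alpha6 chain, which can also pair with beta1, had 2 probe sets. The brighter measured 10.43 and 10.68 in nTKO cells, against 11.02, 10.71 and 10.67 in nDKO cells. The other measured 8.04 and 8.50 in nTKO cells, against 8.77, 8.52 and 8.60 in nDKO cells. By the dimmer probe set the groups did not overlap, though nTKO 2 was only just below nDKO 2, and by the brighter one they did. The differences of means were -0.24 (SE 0.15) by the brighter and -0.36 (SE 0.17) by the dimmer.

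Itga3, the alpha3 chain, pairs with beta1 and binds laminin-332 outside hemidesmosomes. It measured 7.94 and 8.38 in nTKO cells, against 8.23, 8.23 and 8.28 in nDKO cells, so that the nTKO mice lay on either side of a tight nDKO group. The other 2 probe sets of Itga3 also had their lowest value in nTKO 1 (6.52 and 4.65). Cd151 encodes a tetraspanin that binds the alpha3 and alpha6 integrins and had the difference of means nearest to 0 (-0.085, SE 0.14). Its brightest probe set measured 10.75 and 10.88 in nTKO cells, against 11.12, 10.85 and 10.73 in nDKO cells, and the groups overlapped. Of its 6 probe sets, 3 were lowest in nTKO 1, and nTKO 1 lay between -0.46 and 0.11 of the nDKO mean over all 6.

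Of the laminin-332 chains, Lamb3, the beta3 chain, measured 6.63 and 7.94 in nTKO cells, against 7.89, 7.81 and 7.70 in nDKO cells. The 2 nTKO mice were the lowest and the highest of the 5, and nTKO 1 was at 44.4% of the nDKO mean. The difference of means was -0.52 (SE 0.42). Lama3, the alpha3 chain, measured 7.96 and 8.58 in nTKO cells, against 9.0, 8.68 and 8.58 in nDKO cells. Here nTKO 2 equalled the lowest nDKO mouse, and nTKO 1 was at 57.7% of the nDKO mean. The difference of means was -0.48 (SE 0.24). The other probe set of Lama3 was below the array median on all 5 arrays (3.90 to 4.05).

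The plakins link the receptors to keratin. Plec, plectin, had 2 bright probe sets, of which the brighter measured 8.87 and 9.73 in nTKO cells, against 9.87, 9.78 and 9.73 in nDKO cells. The other measured 7.15 and 8.51 in nTKO cells, against 8.58, 8.66 and 8.52 in nDKO cells, and its groups did not overlap, though nTKO 2 and nDKO 3 all but met. In nTKO 1 these probe sets were at 52.7% and 36.9% of the nDKO mean, while nTKO 2 differed from it by -0.063 and -0.077. The remaining probe set of Plec was below the array median on all arrays, at 3.38 and 3.16 in nTKO cells, against 3.31 in each nDKO mouse.

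Dst, which encodes the BPAG1 plakins, gave results that differed between its 4 probe sets. The brightest measured 6.58 and 7.49 in nTKO cells, against 8.90, 7.18 and 6.84 in nDKO cells, and was set apart by nDKO 1. A dimmer probe set followed it, at 5.64 and 5.91 in nTKO cells, against 7.07, 5.81 and 5.52 in nDKO cells. The remaining 2 were highest in nTKO 2 (6.27 and 7.32) and lowest in nTKO 1 (5.22 and 6.57), and their nTKO means were higher than the nDKO means by 0.14 and 0.17. Dst makes epithelial, muscle and neuronal forms from different starts. Which form each probe set reads was not analysed here.

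**Figure D2:**
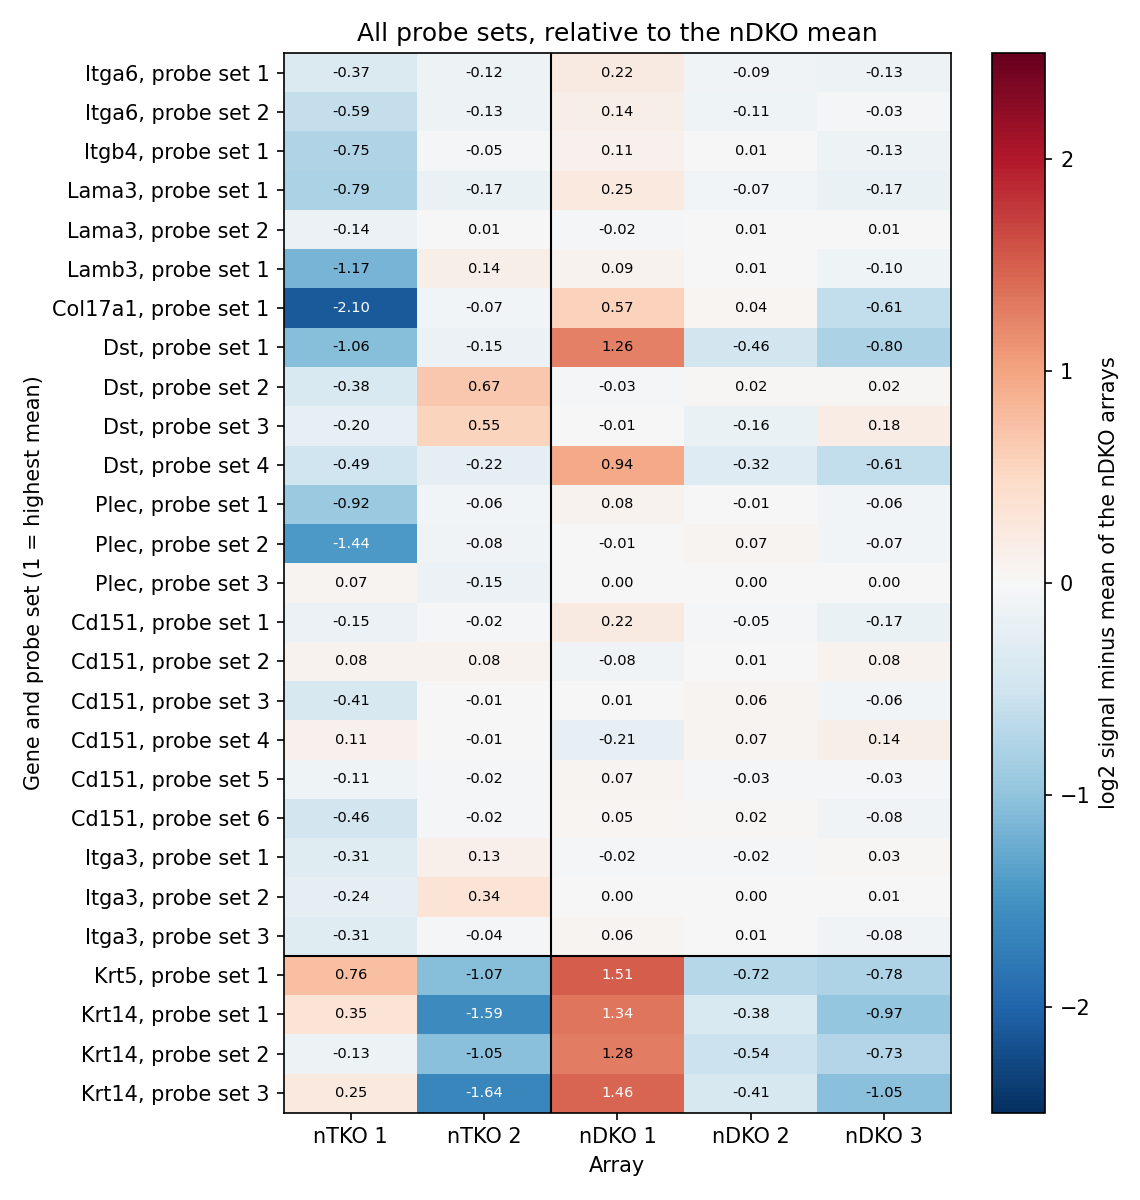
Log2 signal of each probe set minus its own mean over the 3 nDKO arrays, for the 23 probe sets of the 9 genes (above the horizontal line) and the 4 of Krt5 and Krt14, with arrays in columns and probe set 1 the brightest of its gene. The nTKO 1 column is below 0 for 20 of the 23 and reaches -2.10 for Col17a1, while the keratin rows are high in nDKO 1 and low in nTKO 2.

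By means over the genotypes, all 9 brightest probe sets had lower values in nTKO than in nDKO cells, with a median log2 difference of -0.48, against 0.028 over all 18193 genes. The 9 include Itgb4 and Itga6, whose lower nTKO means were known when the list was drawn up. A lower nTKO mean was found for 38.3% of all genes, and for 18 of the 23 probe sets against 41.8% of all. No probe set passed the test. With limma over all 45037 probe sets and Benjamini-Hochberg adjustment, 0 of the 23 had an adjusted p under 0.05 (background 0.0%), with adjusted values of 0.799 to 0.965. Before adjustment 0 of the 23 were under 0.05 either (background 3.8%), and 0 had such a p together with a fold of at least 2 (background 0.113%). Groups did not overlap for 2 of the 23, both lower in nTKO cells (background 5.17%).

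Most of the differences of means were nearer to 0 without nTKO 1. Without that mouse the differences of the 9 brightest probe sets lay between -0.17 and 0.14, with Lamb3 and Itga3 above 0, and over all 23 probe sets the median was -0.023. Without nTKO 2 they lay between -0.15 for Cd151 and -2.10 for Col17a1, with a median of -0.38 over all 23 probe sets. The lone nTKO mouse is then nTKO 1, which had the lowest value for 18 of the 23, so these differences restate its low signals. Without both nTKO 1 and nDKO 1, the differences were 0.48 for Dst, 0.21 for Col17a1, 0.18 for Lamb3, 0.12 for Itga3, 0.09 for Cd151 and 0.01 for Itgb4. They were -0.01 for Itga6, -0.025 for Plec and -0.05 for Lama3, and the median over the 23 probe sets was 0.01. In the pair of mice of like age, nTKO 2 (16 weeks) and nDKO 1 (15.86 weeks), which does not hold nTKO 1, nTKO 2 was lower for 7 of the 9 genes, against 39.1% of all genes, with a median difference of -0.24, against 0.0 over all genes. The difference was -1.41 for Dst, -0.64 for Col17a1, -0.42 for Lama3, -0.34 for Itga6 and -0.24 for Cd151, and it was above 0 for Lamb3 (0.05) and Itga3 (0.15). Over all 23 probe sets nTKO 2 was lower than nDKO 1 for 15, against 36.6% of all probe sets, and higher for 8, with a median of -0.09. The other Dst probe sets were at 0.70, 0.56 and -1.16 in this pair. The pair holds a single mouse of each genotype, so it carries no test.

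**Figure D3:**
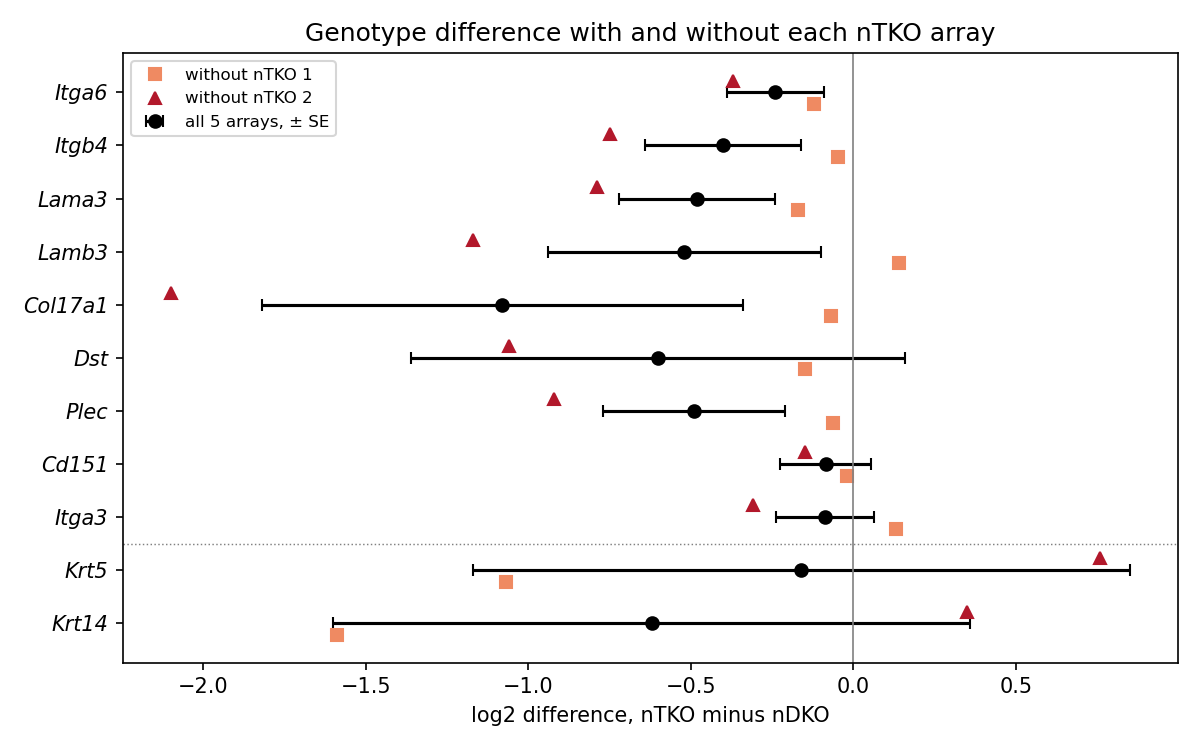
Difference of mean log2 signal, nTKO minus nDKO (horizontal axis), for the brightest probe set of each gene, as black points with the standard error of the fit over all 5 arrays, as squares without nTKO 1 and as triangles without nTKO 2. For 8 of the 9 genes the square lies nearer to 0 than the black point (Itga3 is at 0.13 and -0.087), while Krt5 moves to -1.07 without nTKO 1 and to 0.76 without nTKO 2.

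Krt5 and Krt14, the filament partners of the junction in basal cells, had another pattern over the same arrays. Krt5 measured 12.35 and 10.52 in nTKO cells, against 13.10, 10.87 and 10.81 in nDKO cells. Krt14 measured 11.90 and 9.96 in nTKO cells, against 12.89, 11.17 and 10.58 in nDKO cells. Both were higher in the oldest mouse of each genotype, nTKO 1 over nTKO 2 by 1.83 and 1.94 and nDKO 1 over the mean of nDKO 2 and nDKO 3 by 2.26 and 2.02.

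For most junction genes by their brightest probe sets, the oldest nTKO mouse was lower than the other nTKO mouse, and the oldest nDKO mouse was higher than the other nDKO mice. The ages compared are 31.43 and 16 weeks in nTKO and 15.86 and 10.71 weeks in nDKO, so the spans differ, and nTKO 2 was about as old as nDKO 1. In nTKO cells, nTKO 1 minus nTKO 2 was negative for all 9, with a median of -0.70 (0.02 over all genes), between -0.13 for Cd151 and -2.03 for Col17a1. In nDKO cells, nDKO 1 minus the mean of nDKO 2 and nDKO 3 was positive for 8 of 9, with a median of 0.33 (-0.01 over all genes), between -0.025 for Itga3 and 1.89 for Dst. Over all 23 probe sets the nTKO contrast had a median of -0.44, with 20 below and 2 above 0, while the nDKO contrast was less uniform, with a median of 0.095 and 14 above and 8 below 0. The highest array of the 5 was nDKO 1 for 7 of the 9 genes, against 17.9% of all genes. With nDKO 1 above both other nDKO mice and nTKO 1 below nTKO 2, 8 of the 9 had both, against 6.4% of all genes, and 13 of the 23 probe sets did, against 6.72% of all probe sets. Itgb4 and Itga6, known beforehand for lower nTKO means, are among the 8. Relative to Krt5, and taking the mean of nDKO 2 and nDKO 3 as the zero, Col17a1 was at -3.33 in nTKO 1, 0.53 in nTKO 2 and -1.41 in nDKO 1. Itgb4 on the same scale was at -2.20 in nTKO 1, 0.33 in nTKO 2 and -2.09 in nDKO 1. Relative to Krt5, all 9 genes were lower in nTKO 1 and nDKO 1 than in the other 3 mice, least so Dst in nDKO 1 (-0.37). Relative to Krt14 this held for 8 of the 9, at -1.07 to -2.84 in nTKO 1 and -1.16 to -2.04 in nDKO 1. Dst relative to Krt14 was at -1.46 in nTKO 1 but at -0.12 in nDKO 1, the same as in nDKO 2. Since these values subtract a keratin that was high in nTKO 1 and nDKO 1, they hold the keratin's pattern as well as the gene's. No test of age was made.

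**Figure D4:**
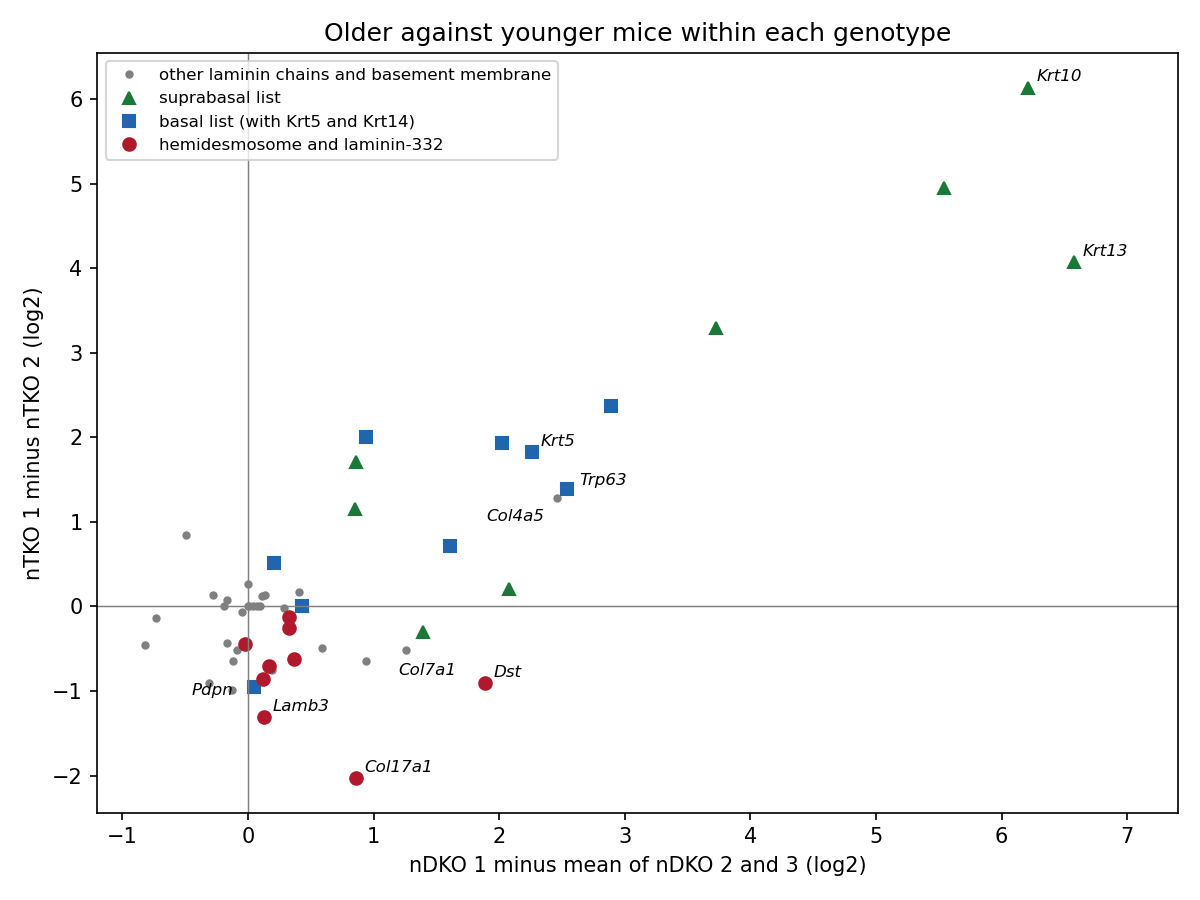
Log2 difference between the older and the younger mice within each genotype, nTKO 1 (31.43 weeks) minus nTKO 2 (16 weeks) (vertical axis) against nDKO 1 (15.86 weeks) minus the mean of nDKO 2 and nDKO 3 (10.71 weeks) (horizontal axis), with 1 point per gene by its brightest probe set. The 9 junction genes all lie below the horizontal zero line, Krt5 is at 1.83 and 2.26, and Krt10 is at 6.14 and 6.21.

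Other epithelial genes followed either order. Of the basal list, the master regulator of basal epithelium Trp63 (8.64 and 7.25 in nTKO cells, against 9.49, 7.04 and 6.86 in nDKO cells) and the water channel Aqp3 (8.05 and 5.68 in nTKO cells, against 8.84, 5.77 and 6.13 in nDKO cells) were high in nTKO 1 and nDKO 1, as Krt5 was. Both of these mice were above the other 3 for 6 of the 9 basal genes, against 14.6% of all genes. The 9 include Krt5 and Krt14 themselves, which are among the 6 and also had lower nTKO means. Krt15, also of the basal layer, measured 13.29 and 12.77 in nTKO cells, against 13.68, 13.41 and 13.52 in nDKO cells, without overlap. Of the 9 basal genes, 7 had lower and 2 higher nTKO means (median -0.16), and 1, Pdpn, was lowest in nTKO 1 (6.90 and 7.85 in nTKO cells, against 7.99, 8.06 and 7.82 in nDKO cells). Over all genes the share lowest in nTKO 1 was 14.0%, and the share with lower nTKO means was 38.3%. Of the 9 suprabasal genes, 7 were higher in nTKO 1 and nDKO 1 than in the other 3 mice, with a list median of 10.77 in nTKO 1 and 5.82 in nTKO 2, against 11.93, 6.69 and 6.12 in nDKO cells. Krt10, a keratin of cells that have left the basal layer, measured 13.04 and 6.90 in nTKO cells, against 13.03, 6.93 and 6.71 in nDKO cells. Krt13, a keratin of stratified mucosa, measured 9.62 and 5.55 in nTKO cells, against 11.97, 4.80 and 5.98 in nDKO cells. The exceptions were Lor, loricrin, at 5.06 in both nTKO mice, against 5.49, 5.06 and 5.07 in nDKO cells, and the cornified envelope gene Sprr1a, at 11.17 and 11.47 in nTKO cells, against 11.93, 10.43 and 10.65 in nDKO cells. None of the suprabasal genes was lowest in nTKO 1 alone.

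Among the other plakins, 2 of the cornified envelope had the widest range. Ppl, periplakin, measured 8.60 and 8.02 in nTKO cells, against 9.63, 8.37 and 8.37 in nDKO cells, and Evpl, envoplakin, 8.08 and 7.96 in nTKO cells, against 8.97, 8.04 and 8.20 in nDKO cells. Of 5 such plakins, all 5 had lower nTKO means (median -0.30), against 38.3% of all genes, and 0 passed the limma test over all probe sets. Of these 5, 2 were lowest in nTKO 1, against 14.0% of all genes.

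Of the other laminin chains, 8 of 9 listed were measured and 4 of these were below the array median throughout. Lama5, the alpha5 chain of the laminins common in mature epithelium, measured 9.43 and 10.07 in nTKO cells, against 10.11, 10.26 and 10.21 in nDKO cells, without overlap. Lamb1 measured 4.53 and 5.17 in nTKO cells, against 6.08, 5.14 and 5.14 in nDKO cells. Lamb2 was 8.37 in both nTKO mice, against 8.46 to 8.52 in nDKO cells. Of the 8 chains, 5 had lower and 3 higher nTKO means (median -0.145), and 3 were lowest in nTKO 1, against 14.0% of all genes. The groups did not overlap for these 2 chains, Lama5 and Lamb2, where 4.71% of all genes were lower without overlap.

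Among 19 further basement membrane genes, 9 had higher and 10 lower nTKO means (median -0.035). Of these 19, 8 were lowest in nTKO 1, against 14.0% of all genes. Col7a1, which forms the anchoring fibrils beneath hemidesmosomes, measured 6.83 and 7.35 in nTKO cells, against 8.56, 7.42 and 7.19 in nDKO cells. Col4a5, a collagen IV chain, was high in nTKO 1 and nDKO 1, at 7.43 and 6.15 in nTKO cells, against 8.85, 6.35 and 6.44 in nDKO cells. The groups did not overlap for Hspg2, perlecan, which differed by -0.035, and for Nid1, nidogen-1 (0.12), which was below the array median throughout. Groups did not overlap, with nTKO higher, for 8.13% of all genes.

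Other matrix receptors were split, with 8 of 14 higher and 6 lower by nTKO means (median 0.007). Of these 14, 5 were lowest in nTKO 1, against 14.0% of all genes. Dag1, dystroglycan, another laminin receptor, was lower in nTKO cells without overlap, at 10.77 and 10.85, against 10.94, 10.95 and 10.97 in nDKO cells. Bcam, a receptor of laminin alpha5, measured 6.18 and 6.85 in nTKO cells, against 6.85, 6.94 and 6.89 in nDKO cells. Itgb8 measured 9.13 and 8.68 in nTKO cells, against 8.62, 9.52 and 8.91 in nDKO cells. Focal adhesion genes had 8 of 14 lower and 6 higher (median -0.052), and 7 of the 14 were lowest in nTKO 1, against 14.0% of all genes. Fermt2, kindlin-2, measured 7.11 and 7.44 in nTKO cells, against 6.11, 7.12 and 7.11 in nDKO cells. The actin crosslinker Actn4 measured 10.74 and 11.37 in nTKO cells, against 11.13, 11.46 and 11.48 in nDKO cells.

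Of 8 tetraspanins, 5 had lower and 3 higher nTKO means (median -0.075), and 4 were lowest in nTKO 1, against 14.0% of all genes. Cd9 was lower without overlap, at 12.51 and 12.62 in nTKO cells, against 12.71, 12.74 and 12.63 in nDKO cells, and Tspan1 measured 11.66 and 12.71 in nTKO cells, against 11.89, 12.63 and 12.69 in nDKO cells. The leukocyte tetraspanin Cd53 was highest in nTKO 1 (9.56 and 7.34 in nTKO cells, against 8.06, 7.56 and 8.64 in nDKO cells). Of 6 genes for proteins that process laminin-332 or its neighbours, 3 were lowest in nTKO 1, against the same 14.0%. The membrane protease Mmp14 measured 8.78 and 8.85 in nTKO cells, against 9.03, 9.33 and 9.28 in nDKO cells. Mmp2, a gelatinase, measured 5.46 and 5.55 in nTKO cells, against 5.15, 5.28 and 5.11 in nDKO cells. Both had groups that did not overlap, a limma adjusted p of 0.799 over all probe sets, and an unadjusted p under 0.05, as 2 of the 6 and 3.74% of all genes had. Bmp1, a procollagen protease, measured 7.01 and 7.13 in nTKO cells, against 7.59, 7.13 and 7.13 in nDKO cells. Over all the lists named here, 0 genes passed the limma test after adjustment.

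The genes whose profiles over the 5 arrays were closest to those of the junction genes were found by the root mean square difference of log2 values centred on each gene's own mean, among 16338 named genes and for the 5 junction genes that spanned at least 1 log2 unit. Nearest to Plec were Arpc4, an actin-nucleation subunit (0.0387), Fzr1 (0.0649) and Trpm4 (0.0658), and Itgb4 ranked 9 (0.0776). Nearest to Lamb3 were Fzr1, an activator of the anaphase-promoting complex (0.115), the podoplanin gene Pdpn (0.129) and Plec itself (0.144). Nearest to Lama3 were Smn1 (0.051), Als2cl (0.0585) and Mrps11 (0.0618), with Itgb4 at rank 12 and Plec at rank 28. Nearest to Col17a1 were Rab10os (0.315), the chemokine scavenger Ackr3 (0.329) and the protease Htra1 (0.34), and Lamb3 ranked 8 (0.478). Nearest to Dst were Col7a1 (0.265), Ackr3 (0.337) and the matrix gene Fbln1 (0.34). Krt5 ranked 16219 for Plec and for Lamb3. Some junction genes also ranked far, with Col17a1 at 15051 and Dst at 15562 for Plec, and Dst at 14775 for Lamb3. The values are not scaled, so genes of wide and of narrow range lie far apart by this measure. Likeness over 5 arrays is a description and carries no test.

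Neutrophil markers were high in nTKO 1. The neutrophil genes S100a8 and S100a9 measured 12.79 and 12.94 in nTKO 1 and 8.30 and 7.93 in nTKO 2, against 9.26 to 10.53 in nDKO cells. The list was measured for 3 of 4 genes, and its summed signal on the log2 scale was 13.89 in nTKO 1 and 9.32 in nTKO 2, against 11.36, 10.57 and 11.28 in nDKO cells. The part of these cells in the low values of nTKO 1 was not tested. Epcam measured 13.24 and 13.41 in nTKO cells, against 12.94, 13.48 and 13.35 in nDKO cells. Cdh1, E-cadherin, measured 12.20 and 12.51 in nTKO cells, against 12.43, 12.52 and 12.52 in nDKO cells. Of the 6 luminal genes measured, 1 was lowest in nTKO 1, against 14.0% of all genes.

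Among the 6 fibroblast markers, 1, Dcn, decorin, was lowest in nTKO 1 (6.41 and 9.52 in nTKO cells, against 7.87, 9.39 and 9.03 in nDKO cells), against 14.0% of all genes. The other 5 had higher nTKO means, as 60.0% of all genes had. Of the 6, 4 were highest in nTKO 1, among them Col3a1 (3.44 and 3.09 in nTKO cells, against 2.77, 2.66 and 2.92 in nDKO cells). The share of all genes highest in nTKO 1 was not counted. Of the 6, 4 were below the array median throughout. The complement gene C1qa of macrophages measured 7.46 and 7.27 in nTKO cells, against 8.20, 7.64 and 9.09 in nDKO cells, and Csf1r, their growth factor receptor, 9.61 and 8.91 in nTKO cells, against 9.37, 8.24 and 9.96 in nDKO cells. Endothelial and Schwann cells also use the alpha6 integrin. Of the endothelial markers 4 of 5 were below the array median throughout, with Pecam1 at 3.71 and 3.24 in nTKO cells, against 3.29, 3.37 and 2.95 in nDKO cells. Of the Schwann genes, Sox10 lay between 5.93 and 6.13 over the 5 arrays and S100b between 3.88 and 4.19. The smooth muscle actin Acta2 measured 7.49 and 7.34 in nTKO cells, against 8.09, 7.34 and 7.39 in nDKO cells. Of 4 T cell markers, Cd3g was below the array median throughout, while Cd3e (5.51 to 5.62), Cd8a (5.56 to 5.74) and Cd4 (5.75 to 5.92) were above it on all arrays and varied little. The seminal vesicle genes Sva and Svs6 were lowest in nDKO 1 (4.30 and 6.41) and highest in nDKO 3 (11.38 and 12.55), with nTKO 1 at 10.37 and 11.33 and nTKO 2 at 6.19 and 8.06. The part of these other cells in the junction genes' values was not tested.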

How the data were processed

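Total RNA of prostate tumour cells taken with EpCAM beads was measured on 5 single-channel Affymetrix arrays, 2 nTKO and 3 nDKO, 1 per mouse. The authors deposited log2 signals per probe set. RMA and the Transcriptome Analysis Console are the tools in the submitters' processing notes, and the sources used here do not give versions. The method equalises the distributions of the arrays, which hides any shift common to most genes, and compresses differences of dim probe sets. Scanner files and control probe sets were not used here. Probe sets took their names from the platform annotation, in which 34945 had 1 symbol, 932 several and 9160 none. The entrez identifiers of all 27 probe sets of the 9 genes and 2 keratins were found in the gene table of GRCm38.p6. The brightest probe set of a gene is that with the highest mean over the 5 arrays.

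The comparison of nTKO with nDKO used limma 3.58.1 in R 4.3.3 (lmFit, eBayes with an intensity trend, no covariate or filter, two-sided, 3 residual and 1.18 prior degrees of freedom), with Benjamini-Hochberg adjustment over 45037 probe sets and a threshold of 0.05. In a simulation of this comparison with 45037 probe sets, 73% of changes of 1 log2 unit and 94% of changes of 2 were recovered. A further 7 unchanged probe sets were also called. The simulated noise was normal, with variances that the fit had already moderated, and its probe sets varied independently, which real ones do not. The shares of recovered changes may therefore not hold for the real arrays. On the real arrays Pygo2, floxed in nTKO mice only, differed by -1.84 and had a limma adjusted p of 0.799. The 0 probe sets past the threshold therefore do not show that differences of this size are absent. The number of arrays limits the precision.

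The members and lists were chosen with earlier results of these data known. Named were all members, Krt5 and Krt14, from each other list the genes whose groups do not overlap (at most 4) and the 2 with the widest range, and for members that span at least 1 log2 unit the 3 genes of closest profile. Markers that check the tissue, Pdpn, Trp63 and further values of the array check were named beyond this rule after their values were seen. Some items are not reported here. Alternatives were 1 probe set per gene, a filter at the median level of 4.97, median centring, quantile normalization, robust eBayes, eBayes with no trend, weights per array, log2 age as a covariate, the replicate block, and leaving out each mouse or both mice numbered 1.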

Additional observations from a re-analysis of the deposited data

Results flagged for a closer look

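For 8 of the 9 genes, by the brightest probe set, nTKO 1 (31.43 weeks) was below nTKO 2 (16 weeks) while nDKO 1 (15.86 weeks) was above both nDKO 2 and nDKO 3 (10.71 weeks), so that the oldest mouse stood on opposite sides in the 2 genotypes. The age spans differ, and nTKO 2 was about as old as nDKO 1. The difference itself was not tested, since each genotype has 1 such mouse. Taken as nTKO 1 minus nTKO 2, less nDKO 1 minus the mean of nDKO 2 and nDKO 3, it was -2.88 for Col17a1 and -2.80 for Dst by its brightest probe set. It was -1.45 for Lamb3, -0.99 for Lama3, -0.98 for Plec, -0.87 for Itgb4, -0.58 for Itga6 and -0.46 for Cd151. On the nDKO side, nDKO 1 was above the mean of nDKO 2 and nDKO 3 by only 0.12 for Plec, 0.13 for Lamb3 and 0.17 for Itgb4. For these genes the value came mostly from nTKO 1 and nTKO 2. For the rest of the 8, nDKO 1 was above by 0.33 to 1.89. The order of signs was found for 6.4% of all 18193 genes. Over all 23 probe sets it was found for 13, against 6.72% of all probe sets, and nDKO 1 was above the mean of nDKO 2 and nDKO 3 for 14 and below it for 8 (median 0.095). Itga3 did not have it, because nDKO 1 was not above the other nDKO mice. The 8 genes that did include Itgb4 and Itga6, whose lower nTKO means were known when the list was drawn up.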

How the results depend on the processing

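With 2 nTKO and 3 nDKO arrays and 1 oldest mouse per genotype, genotype, age and the single mouse cannot be told apart fully. In all 15 alternative fits 0 probe sets, and 0 of those of the 9 genes, had an adjusted p under 0.05 in limma. With both nTKO mice kept, an unadjusted limma p under 0.05 was found for 1171 to 4091 of 45037 probe sets (689 of 18193 with 1 per gene, 990 of 22527 with the filter). It was found for 0 probe sets of the 9 genes. Groups without overlap in either direction were counted for 2 of the 23 (8.7%, against 12.2% of all probe sets). The count was 1 after median centring (4.35% against 14.5%) and 13 without both nTKO 1 and nDKO 1 (56.5% against 54.0%), close to the share of all probe sets. With 1 mouse left out it was 2 to 19, with 8 without nTKO 1 (34.8% against 39.5%), 19 without nTKO 2 (82.6% against 50.0%) and 11 without nDKO 3 (47.8% against 19.4%). With 1 probe set per gene it was 0 of 9, against 12.8% of all genes. The 19 without nTKO 2 rest on nTKO 1 alone, the mouse of the low values, so they restate those values. Scaling did not change the sign of any of the 9 differences. With log2 age as a covariate the median over the 23 probe sets was -0.015, against -0.21 without it, and Lamb3 was 0.23 and Itga3 0.20. Over all alternatives, Itga6, Lama3 and Plec had 0 differences of opposite sign, Itgb4 and Col17a1 1, Dst and Cd151 2, and Lamb3 and Itga3 4. The replicate block left 0 probe sets past the threshold, all and members, and 2294 in place of 1710 at an unadjusted p under 0.05. Deviations from the group means correlated at 0.377 for replicates numbered 1 and 0.311 for those numbered 2. With 2 nTKO mice, the deviations of nTKO 1 and nTKO 2 are equal and opposite, so the 2 correlations are not independent. The mice are separate animals and there are 2 such pairs. The mice numbered 1 were also the oldest of each genotype. Along the first principal component they stood at 24.2 (nTKO 1) and 47.0 (nDKO 1), apart from the other mice (-28.6 to -20.4).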
